A study of Bos taurus with 48 samples.

Results

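RSAD2, MX1 and MX2 are 3 interferon-stimulated antiviral genes, and their RNA was measured on day 17 of the cycle or of pregnancy in the uterine lining, the endometrium, of dairy cows. RSAD2 encodes viperin, a radical S-adenosylmethionine enzyme of the endoplasmic reticulum and lipid droplets that makes a chain-terminating nucleotide. MX1 and MX2 encode dynamin-like GTPases that assemble around viral nucleocapsids and stop their replication. In ruminants the elongating embryo secretes interferon tau, a type I interferon, before it attaches. Endometrial cells that sense it phosphorylate STAT proteins, which enter the nucleus with IRF9 and switch on antiviral genes in the mother's tissue.

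A probe was taken as a member where its gene name on the array, or the symbol in the last brackets of its description, was RSAD2, MX1 or MX2. This gave 3 genes, with 1 probe each, of 21475 probes on the array. The genes were selected on their measured difference between pregnant and cyclic cows, so that difference is given below as a description, with no test.

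The study compared 12 pregnant and 10 cyclic lactating Holstein-Friesian cows of mixed New Zealand and North American ancestry. The estrous cycles of all 22 cows were synchronised, and the pregnant cows received a grade 1 embryo by transfer on day 7. Caruncular endometrium, the raised gland-free sites where the placenta later attaches, and intercaruncular endometrium, the glandular tissue between them, were both sampled from each cow at slaughter, which gave 44 samples. The labels also put the pregnant cows into 7 with a large embryo (over 20 cm and over 75 mg) and 5 with a small embryo (under 20 cm and under 40 mg), and into 6 fertile and 6 sub-fertile cows. Of the 5 cows with a small embryo, 3 were fertile and 2 sub-fertile, and of the 7 with a large embryo 3 were fertile and 4 sub-fertile. The cows are named here by letter in the order of their numbers in the labels, the pregnant ones A to L and the cyclic ones M to V. The Cy5 label marked the sample, which was hybridised together with 1 Cy3-labelled reference, a pool of all the endometrial samples. A level below is the log2 ratio of sample over that pool, so 0 is the level of the pool and 1 unit is a doubling.

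The probes are 60 bases long, and they are shown because each level below is the signal on that stretch of the transcript alone. They are printed 5′ to 3′ in lower case, and no base is put in capitals, since the whole stretch is what binds.
RSAD2: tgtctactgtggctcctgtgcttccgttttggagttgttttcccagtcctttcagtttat
MX1: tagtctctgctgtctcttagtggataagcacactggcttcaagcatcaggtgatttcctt
MX2: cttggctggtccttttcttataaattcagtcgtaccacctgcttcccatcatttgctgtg
CB530781: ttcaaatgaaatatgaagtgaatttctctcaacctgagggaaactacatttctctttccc
The MX1 and MX2 probes share no run longer than 6 bases, although the genes are related. In the RefSeq table of assembly ARS-UCD2.0, MX1 and MX2 lie side by side on chromosome 1 with 0 protein-coding genes between them. RSAD2 lies on chromosome 11 beside CMPK2, a nucleotide kinase gene whose product supplies a substrate of viperin. No probe on the array was matched to CMPK2 by name or accession. The last sequence is no member by the rule. The array describes CB530781 only as an unidentified transcript on bovine chromosome 11 at 70660164 to 70661203, with no genome build given in the sources used here, while the study's annotation of its probes names it RSAD2 as well. Its values are given beside those of the RSAD2 probe and are not counted among the members.

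All 3 member probes were well above background in all 44 samples, and none of their spots was marked as saturated in the Cy5 channel. The Cy3 channel of the reference was not checked for saturation. On the 48 arrays, 68.8% to 84% of spots were above background. The arrays lay on 12 slides read on 3 scan days, and tissue went with slide and scan day: 11 of the 12 pregnant and 9 of the 10 cyclic cows had their intercaruncular sample read on the first scan day and their caruncular sample on the second. Only the pregnant cow K and the cyclic cow T had both tissues on 1 slide, both on the third scan day. Pregnancy state went with slide as well. Leaving repeat arrays aside, only 1 slide of each tissue held both states, with cow R as its only cyclic cow. Cow K, with a large embryo and labelled sub-fertile, stood apart. Its 2 arrays had the highest shares of spots above background, 82.4% and 84%. The main results that use its intercaruncular sample are given with and without it. Both spots of RSAD2 and of MX1 were marked as outliers on the first caruncular array of cyclic cow S, so its values for these genes came from its repeat array alone.

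In caruncular endometrium, every pregnant cow had more RSAD2, MX1 and MX2 RNA than every cyclic cow. RSAD2 ranged from -5.35 to -3.70 in the 10 cyclic cows, with a median of -4.06, and from -0.42 to 2.44 in the 12 pregnant cows, with a median of 1.23. The lowest pregnant cow lay 3.29 above the highest cyclic cow. MX2 ranged from -3.73 to -3.32 in cyclic cows, with a median of -3.40, and from 0.41 to 2.25 in pregnant cows, with a median of 1.51. MX1 ranged from -2.96 to -1.35 in cyclic cows, with a median of -2.20, and from -0.04 to 1.78 in pregnant cows, with a median of 1.29. In each case the 2 groups did not overlap. The mean differences were 5.46 ± 0.30 (SE, 12 and 10 cows) for RSAD2, or 44-fold, 4.89 ± 0.18 for MX2, or 29.8-fold, and 3.28 ± 0.21 for MX1, or 9.68-fold.

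The intercaruncular samples gave smaller differences, with no overlap either. RSAD2 ranged from -4.75 to -4.03 in cyclic cows, with a median of -4.45, and from -2.26 to 1.57 in pregnant cows, with a median of -0.77. MX2 ranged from -3.87 to -3.22 in cyclic cows, with a median of -3.36, and from -1.79 to 1.73 in pregnant cows, with a median of -0.48. MX1 ranged from -2.90 to -1.60 in cyclic cows, with a median of -1.71, and from -0.17 to 1.30 in pregnant cows, with a median of 0.73. The mean differences were 3.65 ± 0.32 for RSAD2, or 12.6-fold, 2.90 ± 0.29 for MX2, or 7.47-fold, and 2.50 ± 0.17 for MX1, or 5.65-fold. Without cows K and T, the cows of the third scan day, they were 3.403, 2.65 and 2.36. The unidentified transcript CB530781 was higher in pregnant cows by 5.85 ± 0.43 in caruncular and by 4.53 ± 0.28 in intercaruncular samples.

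Because this contrast chose the genes, nothing is read from these sizes. Over all 14690 probes that passed the filter on low signal, 9.99% in caruncular and 7.24% in intercaruncular samples changed at least 1.5-fold with a Benjamini-Hochberg adjusted p under 0.05 (limma). All pregnant cows lay above all cyclic cows for 1.59% of these probes in caruncular and 0.939% in intercaruncular samples. Ranked by the size of the rise, RSAD2 stood at place 2 in caruncular and place 4 in intercaruncular samples, MX2 at 4 and 19, and MX1 at 33 and 37. CB530781, which is no member, stood at place 1 in both. High places of the members follow from how they were chosen. Whole pieces of tissue were measured, so more RNA per cell and more cells of a responding type cannot be told apart. In pregnant cows 3 of 13 leukocyte marker genes tested were called higher in caruncular and 1 of 13 in intercaruncular samples, with 0 lower. Their mean level ranged from -0.12 to 0.80 in pregnant and -0.53 to 0.29 in cyclic caruncular samples, and from -0.39 to 0.53 and -0.36 to 0.06 in intercaruncular samples. Smooth muscle markers were lower in pregnant cows (4 of 5 called in each tissue, 0 higher). The part of these cells in the members' levels was not tested.

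**Figure D1:**
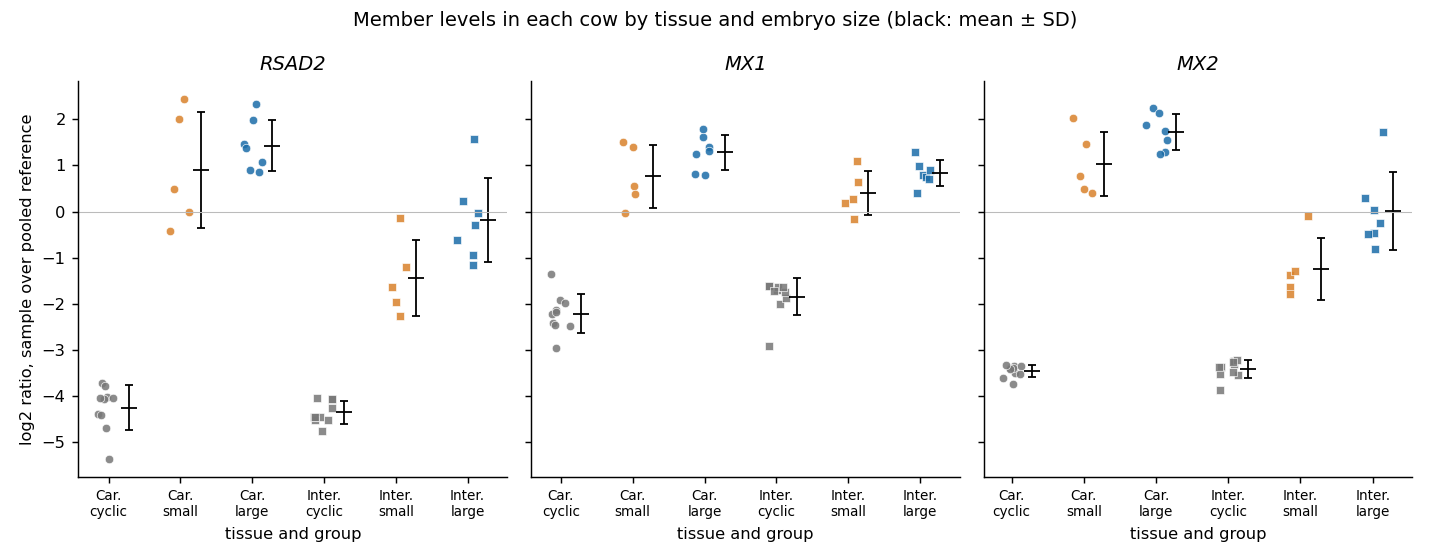
Log2 ratio of sample over pooled reference (y axis) for RSAD2, MX1 and MX2 in each cow, by tissue and embryo size (x axis), with grey for the 10 cyclic cows, orange for the 5 cows with a small embryo and blue for the 7 with a large embryo, and black marks for mean ± SD. All 12 pregnant cows lie above all 10 cyclic cows in both tissues, and 1 large-embryo cow stands apart in intercaruncular RSAD2 (1.57) and MX2 (1.73).

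The rest of the interferon pathway was described from lists of other genes. Of 11 tested genes of type I interferon receptor and signalling, 6 were called higher in pregnant cows in caruncular and 5 in intercaruncular samples, with 0 lower, and the median differences were 1.09 and 0.41 against -0.04 and -0.01 over all probes. Among them were IRF9, the DNA-binding subunit that pairs with the STAT proteins (2.49 ± 0.15, SE, and 2.00 ± 0.13), and USP18, which removes ISG15 from proteins and restrains the receptor (4.40 ± 0.29 and 3.62 ± 0.22). Of 28 tested genes on a list of other antiviral effectors, 25 were called higher in caruncular and 24 in intercaruncular samples, with 0 lower, and the medians were 2.74 and 2.33. They included IFI44 (3.44 ± 0.15 and 2.58 ± 0.14) and EIF2AK2, the kinase PKR that halts translation on double-stranded RNA (3.27 ± 0.19 and 2.63 ± 0.17). Another was HERC6, a HECT-type ubiquitin ligase family member, whose 2 probes gave 3.41 ± 0.18 and 3.81 ± 0.24 in caruncular and 2.08 ± 0.28 and 3.22 ± 0.17 in intercaruncular samples. Of all probes, 5.77% were called higher in pregnant cows in caruncular and 3.99% in intercaruncular samples. These lists were put together with earlier results of these data known, so their direction is no independent evidence.

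The listed relatives by protein family were called at shares near those of all probes, so nothing is read from their counts. Of 13 tested genes on a list of other dynamin-superfamily GTPases, 2 were called higher in caruncular and 1 in intercaruncular samples, with 0 lower. The study places guanylate-binding proteins in a GTPase family with the Mx proteins and reports several as higher in pregnant cows. These counts therefore do not stand for all relatives of MX1 and MX2. The endosomal GTPase EHD4 differed by 1.01 ± 0.22 and 0.64 ± 0.22 (SE, adjusted p = 0.00196 and 0.0376, limma). Of 7 other radical S-adenosylmethionine enzymes, 1 was called higher in each tissue, namely MOCS1, which starts molybdenum cofactor synthesis (0.66 ± 0.22 and 0.69 ± 0.21). Of 8 tested genes next to RSAD2 or for proteins known to bind viperin, such as FDPS of isoprenoid synthesis and the signalling proteins IRAK1 and TRAF6, none was called in either tissue, while 9.99% and 7.24% of all probes were.

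Within pregnant cows all 3 genes were higher in caruncular than in intercaruncular endometrium, RSAD2 by 3.76-fold, MX2 by 3.86-fold and MX1 by 1.33-fold. In cyclic cows RSAD2 and MX2 did not pass the test. The comparison took each cow's caruncular minus intercaruncular level. For MX2 it ranged in the 12 pregnant cows from -0.18 to 2.95, with a median of 2.04, and in the 10 cyclic cows from -0.26 to 0.17, with a median of -0.08. For RSAD2 it ranged from -0.50 to 3.64 in pregnant cows, with a median of 2.00, and from -0.605 to 0.46 in cyclic cows, with a median of 0.23. For MX1 it ranged from -0.12 to 1.02 in pregnant cows, with a median of 0.39, and from -0.81 to 0.26 in cyclic cows, with a median of -0.39.

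The difference was positive in 11 of 12 pregnant cows for each of the 3 genes, and the exception each time was cow K. MX2 differed by 1.95 ± 0.16 (SE), with an adjusted p of 1.94e-08 over all probes (limma) and an exact two-sided sign-flip permutation p of 0.000977. RSAD2 differed by 1.91 ± 0.20 (adjusted p = 1.11e-07, exact permutation p = 0.000977). MX1 differed by 0.41 ± 0.09 (adjusted p = 0.000594, exact permutation p = 0.00195). The smallest p the 4096 sign flips allow is 0.000488. The SEs and limma p values come from 1 fit with a spread shared by both states. In the pregnant cows alone, a t-test on the differences gave an SE of 0.28 for RSAD2 (adjusted p = 0.000192). It gave 0.23 for MX2 (adjusted p = 7.29e-05) and 0.097 for MX1 (adjusted p = 0.00385). For CB530781 the difference was 0.99 ± 0.19, or 1.99-fold, positive in 10 of 12 cows.

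A call was no mark of these genes, since 62.7% of all probes were called between the tissues in pregnant cows, and 19.6% were higher in caruncular tissue in at least 11 of the 12. Their sizes stood further out: the differences of RSAD2 and MX2 were each larger than those of 99.3% of probes, while that of MX1 was larger than 70.7%. Cell type markers differed between the tissues as well. In pregnant cows 7 of 8 stroma markers were called higher and 0 lower in caruncular tissue, and 6 of 9 gland and luminal epithelium markers were called lower and 1 higher. FOXA2, a transcription factor of the uterine glands, was lower by 2.65 on the log2 scale in caruncular tissue (-2.65 ± 0.34), and LUM, the stromal matrix protein lumican, was higher (1.26 ± 0.12). The mean level of the stroma markers ranged from -0.11 to 1.25 in caruncular and -0.52 to 0.26 in intercaruncular samples of pregnant cows, and that of the epithelial markers from -1.49 to 0.14 and -0.31 to 0.39. The part of these cells in the members' levels was not tested.

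In cyclic cows, where 55.4% of probes were called, RSAD2 differed between the tissues by 0.10 ± 0.22 (95% interval -0.36 to 0.57, adjusted p = 0.712, limma) and MX2 by -0.04 ± 0.18 (-0.42 to 0.33, adjusted p = 0.848). These SEs and intervals share their spread with the pregnant cows, whose differences varied more for both genes. In the cyclic cows alone, a t-test gave an SE of 0.12 for RSAD2 (adjusted p = 0.478) and 0.045 for MX2 (adjusted p = 0.424). MX1 was lower in caruncular tissue in 9 of 10 cyclic cows, with a mean difference of -0.37 ± 0.10 (adjusted p = 0.00407, exact permutation p = 0.00977), so its sign was opposite to that in pregnant cows. Of the 12 pregnant cows, 11 had a larger difference than every cyclic cow for RSAD2 and for MX2, and 8 did for MX1. This contrast between the states uses the one that chose the genes and was not tested.

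In 20 of the 22 cows, tissue and scan day cannot be told apart. In cow K, the only pregnant cow with both tissues on 1 slide, intercaruncular tissue had the higher levels of all 3 genes. Its caruncular and intercaruncular levels were 1.07 and 1.57 for RSAD2, 1.56 and 1.73 for MX2, and 0.79 and 0.91 for MX1. In the other 11 cows the difference was at least 1.22 for RSAD2 and at least 1.48 for MX2, with means of 2.13 ± 0.61 (SD, n = 11) and 2.14 ± 0.46. Without the cows of the third scan day, the adjusted p was 1.3e-10 for RSAD2, 2.53e-12 for MX2 and 0.000187 for MX1 (limma). In the cows then left, tissue went wholly with scan day, so these p values cannot separate a tissue difference from one of scan day.

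Tissue markers in cow K differed in the direction of the other cows. FOXA2 was lower in its caruncular sample (-1.24, against -4.55 to -0.66 in the other 11 pregnant cows), as was MUC1, a mucin of the epithelial surface (-0.84, against -2.94 to -0.19). LUM and COL1A1, a collagen of the stroma, were higher (0.64 and 1.96, against 0.63 to 2.12 and 0.27 to 1.42). Across all probes that passed the filter, however, its tissue difference followed the mean of the other cows less closely, with a correlation across probes of 0.43 and a slope of 0.35, against 0.64 to 0.91 and 0.49 to 1.30 in the others. The cyclic cow with both tissues on 1 slide, T, had a correlation of 0.18, against 0.44 to 0.92 in the other cyclic cows. On the 200 probes with the largest mean tissue difference in the other cows of its state, cow K had their sign on 163. Other pregnant cows had it on 190 to 200. Cow T had it on only 61, against 129 to 199 in the other cyclic cows. Repeat arrays of 4 caruncular samples, read on the third scan day, bear on the caruncular side alone. They lay between 0.65 below and 0.46 above the first arrays for the members, and that of pregnant cow A was higher by 0.14 for MX2, 0.34 for RSAD2 and 0.46 for MX1. No intercaruncular sample was read on more than 1 day.

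**Figure D2:**
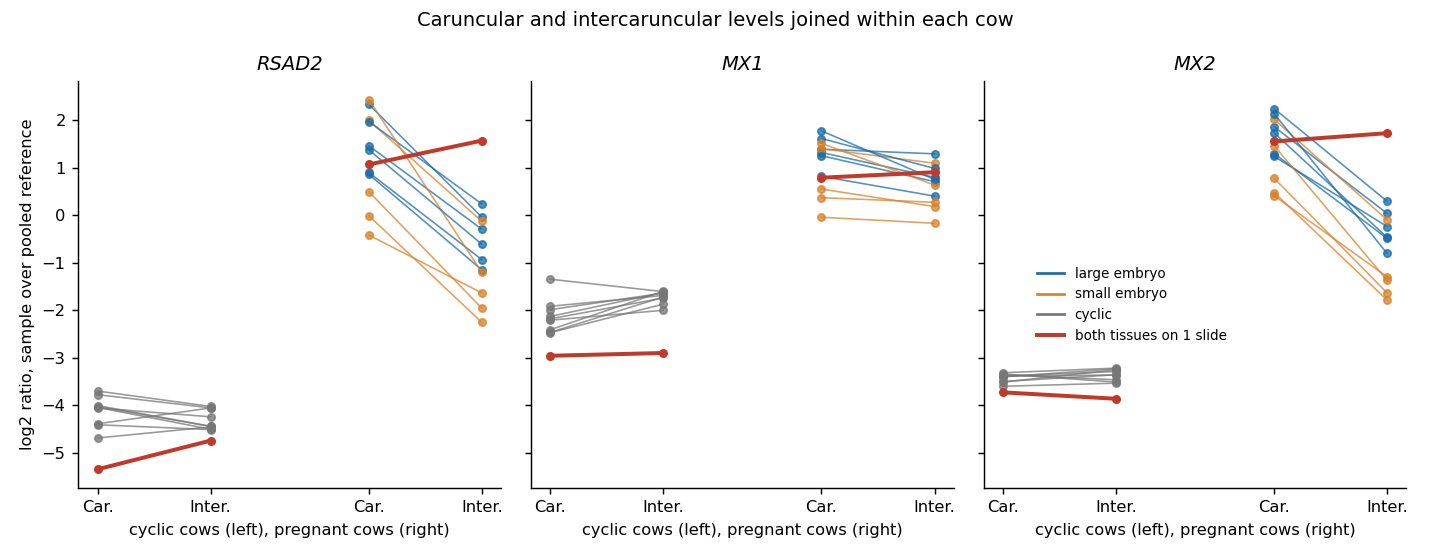
Caruncular (Car.) and intercaruncular (Inter.) log2 ratios of RSAD2, MX1 and MX2, joined within each cow, with cyclic cows on the left and pregnant cows on the right of each panel, blue for large and orange for small embryos, and thick red for the 2 cows with both tissues on 1 slide. The lines of 11 pregnant cows fall from caruncular to intercaruncular tissue for RSAD2 and MX2, and the red line of cow K rises, while the mean fall of MX1 is 0.41.

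Cows with a small embryo had lower mean levels of all 3 genes in both tissues than cows with a large embryo, and the gap was widest for RSAD2 and MX2 in intercaruncular endometrium, but no member passed the test across all probes. Embryo size was not used to choose the genes. In the 5 cows with a small embryo, intercaruncular MX2 was -1.79, -1.64, -1.37, -1.30 and -0.10 in cows C, J, B, G and H. In the 7 cows with a large embryo it ranged from -0.80 to 1.73, with a median of -0.24. So 4 of the 5 small-embryo cows lay below every large-embryo cow, and cow H lay among them.

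Intercaruncular RSAD2 gave the same picture. It was -2.26, -1.96, -1.64, -1.20 and -0.13 in cows C, J, G, B and H, and ranged from -1.15 to 1.57 in large-embryo cows, with a median of -0.29. Again cow H alone of the small-embryo cows overlapped the others. Intercaruncular MX1 was -0.17, 0.18, 0.28, 0.64 and 1.10 in cows C, J, G, B and H, and ranged from 0.40 to 1.30 in large-embryo cows, with a median of 0.80.

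The mean difference, large minus small, was 1.25 ± 0.41 (SE, 7 and 5 cows) for MX2, or 2.38-fold, with an exact two-sided permutation p of 0.0177 and an adjusted p of 0.105 over all probes (limma). It was 1.26 ± 0.46 for RSAD2, or 2.4-fold (exact permutation p = 0.0316, adjusted p = 0.138), and 0.43 ± 0.20 for MX1, or 1.35-fold (exact permutation p = 0.077, adjusted p = 0.238). Of all probes, 3.69% were called in this comparison, and none of the 3 members was. That share rested on single cows: it was 542 probes with all 12, 34 without cow B and 1882 without cow K. CB530781 differed by 1.17 ± 0.34 (exact permutation p = 0.0114, adjusted p = 0.0787).

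Cow K is among the large-embryo cows. Without it the difference was 0.96 for MX2 (exact permutation p = 0.0216, adjusted p = 0.0505), 0.97 for RSAD2 (exact permutation p = 0.0455, adjusted p = 0.101) and 0.42 for MX1 (exact permutation p = 0.113, adjusted p = 0.215). Without cow H the differences rose to 1.53 for MX2 and 1.59 for RSAD2. With slide as a fixed block they were 0.78 ± 0.33 for MX2, 0.72 ± 0.35 for RSAD2 and 0.26 ± 0.20 for MX1, none of them called. Within a slide, large minus small was 1.64 for MX2 and 1.51 for RSAD2 on the slide with 1 large-embryo and 3 small-embryo cows. On the slide with 2 and 1 pregnant cows it was 0.95 and 0.76, and on the slide with 3 and 1 it was -0.24 and -0.12, where cow H was the small-embryo cow. The sign thus changed on 1 of 3 slides.

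In caruncular endometrium the small-embryo cows fell apart. RSAD2 was -0.42, -0.0092 and 0.50 in cows G, C and J but 2.00 and 2.44 in cows H and B, while large-embryo cows ranged from 0.86 to 2.34 with a median of 1.38. MX2 was 0.41, 0.48, 0.78, 1.47 and 2.02 in cows G, C, J, B and H, against 1.24 to 2.25 in large-embryo cows. MX1 was -0.04, 0.37, 0.55, 1.40 and 1.52 in cows C, G, J, H and B, against 0.79 to 1.78. Thus the 3 lowest cows in each gene were the same 3 small-embryo cows, while the other 2 lay within the large-embryo range or above it.

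The difference was 0.70 ± 0.28 for MX2 (95% interval 0.06 to 1.33, exact permutation p = 0.053), 0.53 ± 0.48 for RSAD2 (-0.53 to 1.59, exact permutation p = 0.354) and 0.52 ± 0.28 for MX1 (-0.09 to 1.14, exact permutation p = 0.109). The adjusted p values over all probes were 0.695, 0.879 and 0.748 (limma). No probe of the array was called here (0%, against 1014 probes at an unadjusted p under 0.05, and 0 by the methods' t-test). Leaving out 1 cow moved the RSAD2 difference between 0.20, without cow G, and 0.91, without cow B. The tissue difference itself was compared between embryo sizes and between fertility labels in 6 exact permutation tests, chosen after the data were seen. For embryo size, large minus small was -0.74 for RSAD2 (exact permutation p = 0.241), -0.55 for MX2 (p = 0.277) and 0.09 for MX1 (p = 0.665). Without cow K it was -0.39 (exact permutation p = 0.37), -0.24 (p = 0.413) and 0.18 (p = 0.348).

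The small-embryo cows alone also lay above the cyclic cows. They belong to the pregnant group whose difference from cyclic cows chose the genes, so this is a description. Their mean level exceeded that of cyclic cows by 5.15 for RSAD2, 4.49 for MX2 and 2.97 for MX1 in caruncular samples, and by 2.92, 2.17 and 2.25 in intercaruncular samples. The 28 other antiviral effectors, a list put together with earlier results known, were tested in the intercaruncular comparison of embryo sizes. Their median difference was 0.73 against -0.0098 over all probes. In this comparison 3.69% of all probes were called, a share that rested on single cows. Of the 28, 5 were called higher with a large embryo and 0 lower. They were ZBP1, a sensor of unusual nucleic acids (1.14 ± 0.25, adjusted p = 0.0329), OAS2, which makes the activator of RNase L (1.17 ± 0.27, adjusted p = 0.0382), TRIM21 (0.54 ± 0.10, adjusted p = 0.0232), APOBEC3Z2, a cytidine deaminase (0.54 ± 0.12, adjusted p = 0.0382), and EIF2AK2 (0.65 ± 0.15, adjusted p = 0.0425).

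Between embryo sizes in intercaruncular samples, 0 of 5 smooth muscle, 1 of 8 stroma and 1 of 6 endothelium markers were called. The counts were 0 of 9 for epithelial, 0 of 13 for leukocyte and 1 of 2 for red cell markers, against 3.69% of all probes. The mean level of the smooth muscle markers ranged from -0.79 to 0.00033 in small-embryo cows and from -1.73 to -0.61 in large-embryo cows, and that of the stroma markers from -0.04 to 0.26 and -0.52 to 0.24. The stromal collagen gene COL3A1 was called lower with a large embryo (-0.92 ± 0.23, adjusted p = 0.0492, limma), as was the endothelial gene PECAM1 (-0.93 ± 0.21, adjusted p = 0.0382). The part of these cells in the members' levels was not tested.

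No member passed the test between fertile and sub-fertile pregnant cows in either tissue, and the mean difference of RSAD2 was 0.97 in caruncular and 0.06 in intercaruncular endometrium. In caruncular samples RSAD2 ranged from 0.50 to 2.44 in the 6 fertile cows, with a median of 1.99, and from -0.42 to 1.47 in the 6 sub-fertile cows, with a median of 0.97. The groups overlapped. The difference, fertile minus sub-fertile, was 0.97 ± 0.41 (SE, 95% interval 0.05 to 1.88, exact two-sided permutation p = 0.0606, adjusted p = 0.332, limma). It was 0.45 ± 0.28 for MX1 (exact permutation p = 0.171) and 0.44 ± 0.32 for MX2 (exact permutation p = 0.221).

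No probe of the array was called in this caruncular comparison (0%, against 2024 probes at an unadjusted p under 0.05, limma, and 0 by the methods' t-test). The smallest p that the 924 splits of the cows allow is 0.00216. CB530781 differed by 1.35 ± 0.54 (exact permutation p = 0.0498, adjusted p = 0.318). The lowest levels were those of the 2 sub-fertile cows with a small embryo, C and G. Their caruncular RSAD2 averaged -0.21, against 1.20 in the 4 sub-fertile cows with a large embryo, 1.65 in the 3 fertile cows with a small embryo and 1.74 in the 3 fertile cows with a large embryo. MX1 averaged 0.17, 1.18, 1.16 and 1.42 and MX2 averaged 0.45, 1.60, 1.42 and 1.90 in the same order. With 2 to 4 cows in each, these 4 groups were not tested.

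In intercaruncular samples, where 0.0477% of probes were called, the difference was 0.06 ± 0.58 for RSAD2 (95% interval -1.22 to 1.34, exact permutation p = 0.939), 0.32 ± 0.21 for MX1 (-0.16 to 0.80, exact permutation p = 0.195) and -0.35 ± 0.52 for MX2 (-1.51 to 0.82, exact permutation p = 0.584). Cow K was the highest sub-fertile cow in RSAD2 (1.57) and MX2 (1.73). Without it the differences were 0.52 for RSAD2 and 0.07 for MX2, so the sign of MX2 turned. The intervals are wide enough to hold more than a doubling of RSAD2 in either direction. Slide went with the fertility label, since 2 of 3 slides with several pregnant cows held 1 label only. On the remaining slide fertile minus sub-fertile was -0.30 for RSAD2 and -0.63 for MX2 in intercaruncular and 0.74 and -0.05 in caruncular samples. The tissue difference itself was larger in fertile than in sub-fertile cows by 0.79 for MX2 (exact permutation p = 0.0606), 0.91 for RSAD2 (p = 0.0823) and 0.13 for MX1 (p = 0.537), with p values of 0.247, 0.247 and 0.644 after adjustment over the 6 tests. Without cow K these were 0.45 (exact permutation p = 0.123), 0.52 (p = 0.177) and 0.03 (p = 0.87).

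**Figure D3:**
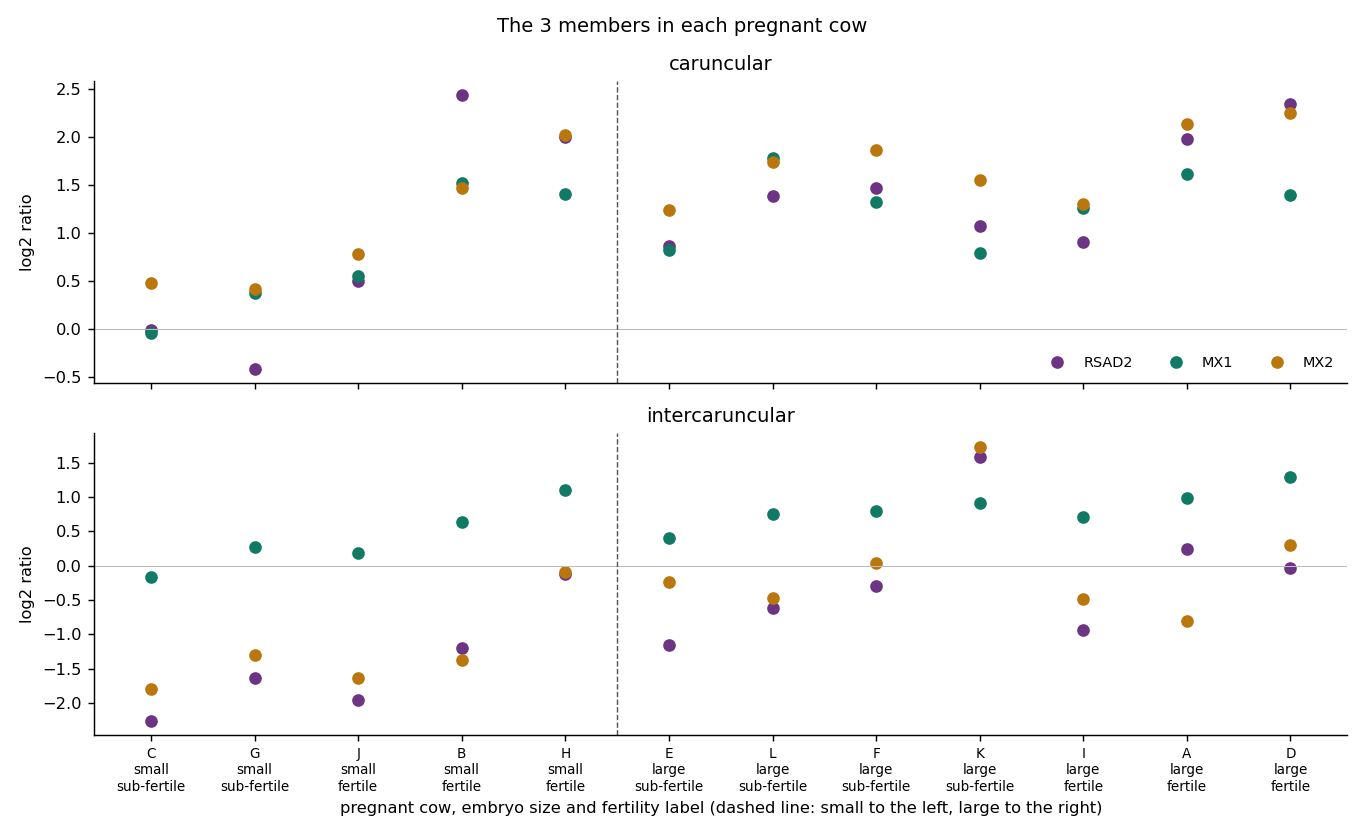
Log2 ratios of RSAD2, MX1 and MX2 in each of the 12 pregnant cows (x axis, cows by letter, small embryos on the left and large embryos on the right), with caruncular and intercaruncular samples in separate panels. Cows C, G and J are among the lowest 4 for every gene in both tissues, and cow K is the highest for RSAD2 and MX2 in intercaruncular tissue only.

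The 3 genes varied more among pregnant cows than most of the array. In caruncular samples the SD over 12 cows was 0.90 for RSAD2, 0.62 for MX2 and 0.56 for MX1, larger than that of 97.4%, 92% and 89.6% of probes, whose median SD was 0.25. In intercaruncular samples it was 1.06, 0.98 and 0.42, larger than that of 98.8%, 98.2% and 77% of probes. Without cow K it was 0.82, 0.71 and 0.43. Among cyclic cows the SD of MX2 was 0.13 in caruncular and 0.20 in intercaruncular samples, larger than that of only 11.2% and 25.1% of probes. RSAD2 in cyclic cows had an SD of 0.49 and 0.24, and MX1 0.43 and 0.39. The 2 spots of a probe on an array differed by a median of 0.07 for RSAD2, 0.05 for MX2 and 0.14 for MX1. The largest such difference was 0.98 for MX1, 0.23 for RSAD2 and 0.13 for MX2. Hybridising cow A again moved its caruncular MX1 by 0.46, near the SD of MX1 among pregnant cows.

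The order of the pregnant cows was much the same in the 3 genes. In caruncular samples RSAD2 and MX2 correlated across the 12 cows with Pearson's r = 0.894 (permutation p = 0.00012) and Spearman's rho = 0.846 (permutation p = 0.0009). RSAD2 and MX1 gave r = 0.847 (permutation p = 0.00043) and rho = 0.818 (p = 0.00192), and MX1 and MX2 gave r = 0.86 (permutation p = 0.00045) and rho = 0.769 (p = 0.00501). Without cows C and G, the farthest from the median, r was 0.768, 0.72 and 0.71. In intercaruncular samples r was 0.897 for RSAD2 and MX2 (permutation p = 0.00023, rho = 0.818, p = 0.00193), 0.814 for RSAD2 and MX1 (p = 0.00127, rho = 0.93, p = 5e-05) and 0.684 for MX1 and MX2 (p = 0.0138, rho = 0.776, p = 0.00421). Without the 2 farthest cows these were 0.731, 0.926 and 0.574, and without cow K 0.803, 0.947 and 0.803. Within slides, over 11 cows, r was 0.874, 0.894 and 0.867 in caruncular samples for RSAD2 with MX1, RSAD2 with MX2 and MX1 with MX2, and 0.901, 0.723 and 0.744 in intercaruncular samples. The genes share each array and its labelling.

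**Figure D4:**
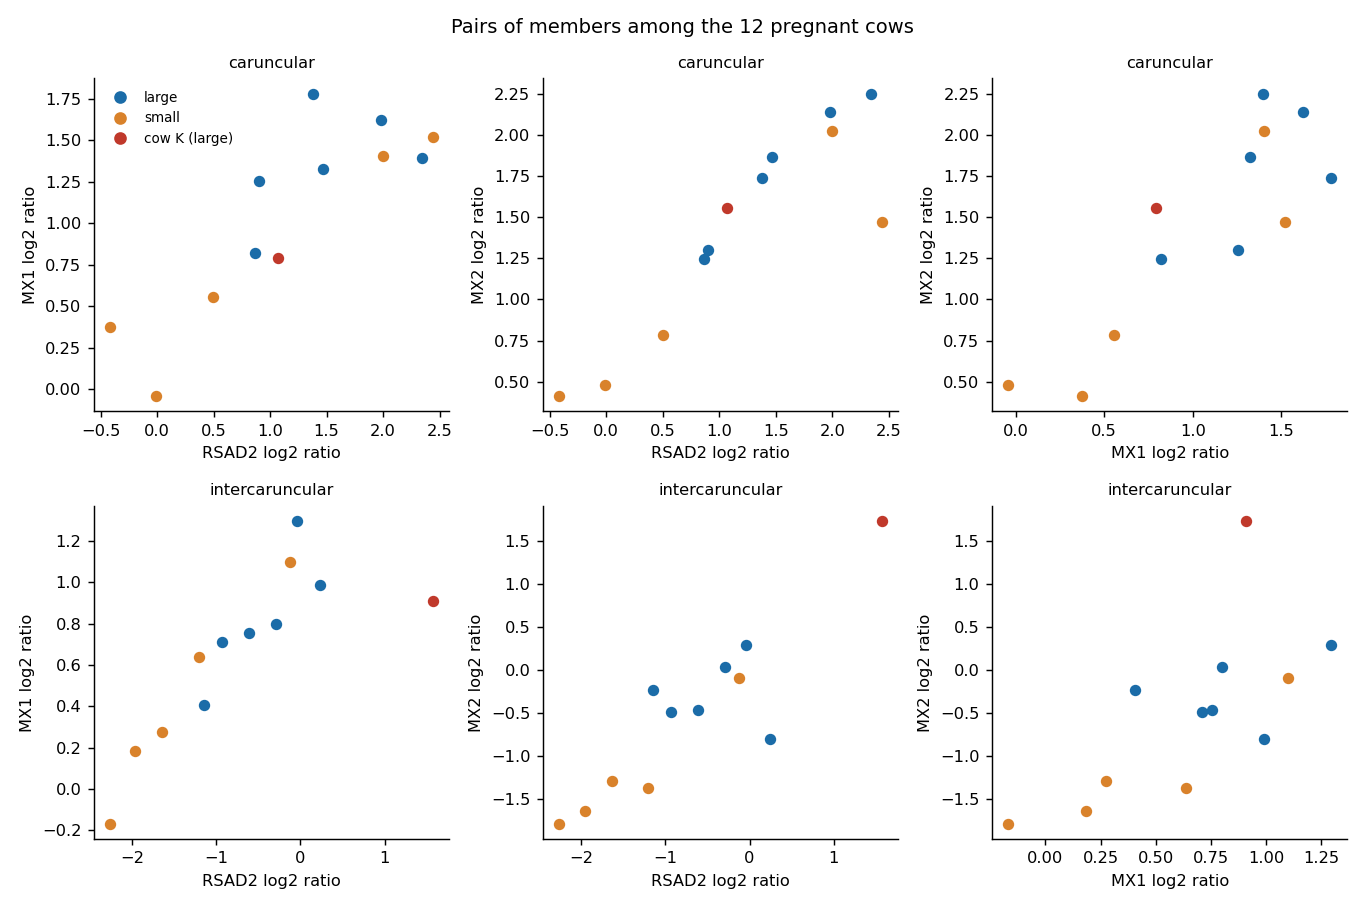
Log2 ratios of each pair of genes (RSAD2 with MX1, RSAD2 with MX2, MX1 with MX2) over the 12 pregnant cows in caruncular and intercaruncular samples, 1 point per cow, with cow K in red. The points rise together in all 6 panels (r from 0.684 to 0.897), and the red point lies at the top for RSAD2 and MX2 in intercaruncular samples.

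The levels of a cow in its 2 tissues were compared as well. Caruncular and intercaruncular MX1 correlated with r = 0.801 (permutation p = 0.00182) and rho = 0.65 (p = 0.0259), MX2 with r = 0.581 (p = 0.0436) and rho = 0.643 (p = 0.027), and RSAD2 with r = 0.536 (p = 0.0711) and rho = 0.601 (p = 0.0428). Without cows C and G, r was 0.575, 0.377 and 0.26. Without cow K, r was 0.856, 0.777 and 0.771, and within slides, over 11 cows, it was 0.856, 0.743 and 0.773. Without all 3 of these cows r was 0.697, 0.658 and 0.638, so the low values for MX2 and RSAD2 rested on cow K being kept. These were 9 relations in all, and the Benjamini-Hochberg adjusted p of Pearson's r was 0.00101 for each caruncular pair of genes and for RSAD2 with MX2 in intercaruncular samples, 0.00229 and 0.0177 for the other two intercaruncular pairs, and 0.00273, 0.049 and 0.0711 between the tissues for MX1, MX2 and RSAD2.

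The genes whose pattern was most like that of each member are named next. Likeness was Pearson's r over the 44 samples, where the difference between pregnant and cyclic cows sets most of it, and over the 24 samples of pregnant cows after each tissue's mean was subtracted. Samples of a cow and arrays of a slide share their source, so r is given with no test. RSAD2 was closest over 44 samples to IFIH1, a sensor of long double-stranded RNA (0.988), TDRD7 (0.988), DTX3L (0.987), HERC6 (0.986) and PARP14 (0.983). Over the 24 pregnant samples it was closest to IFIH1 (0.961), DTX3L (0.961), HERC6 (0.933), TENT2 (0.927) and CDADC1 (0.923).

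MX2 was closest to DTX3L (0.981), HERC6 (0.98), TDRD7 (0.975), IFIH1 (0.973) and IFI16, a sensor of DNA (0.969), and over the pregnant samples to HERC6 (0.92), DTX3L (0.918), ANKFY1 (0.905), MORC3 (0.894) and ATF6 (0.885). So IFIH1, DTX3L, HERC6 and TDRD7 stood among the closest 5 of both RSAD2 and MX2 over 44 samples. MX1 had other neighbours there. It was closest to IRF9 (0.99), ZNFX1 (0.99), RIGI, a sensor of uncapped RNA (0.989), PARP12 (0.989) and C17orf27 (0.984), and over the pregnant samples to UBA7, which activates ISG15 (0.966), PARP12 (0.949), PLEKHA4 (0.938), PARP14 (0.933) and TDRD7 (0.922). Between members r over 44 and over 24 samples was 0.987 and 0.887 for RSAD2 with MX2, 0.957 and 0.811 for RSAD2 with MX1, and 0.94 and 0.714 for MX1 with MX2. CB530781 was closer to MX1 (0.986 and 0.903) than to RSAD2 (0.969 and 0.808).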

How the data were processed

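RNA of 44 endometrial samples from 22 cows was measured on 48 arrays of an Agilent bovine design, with 4 samples hybridised again. The authors deposited the scanner files, whose spot intensities and log10 ratios of Cy5 over Cy3 had been background-subtracted and dye-normalised in Agilent Feature Extraction 9.5.3.1 per the file headers. The authors also deposited a table of log2 ratios of sample over reference, normalised within each array, which was used as an alternative. Here ratios were converted to log2 and each array was centred on its median. Outlier spots (0.529%) and control spots were left out, the 2 spots of a probe and repeat arrays were averaged, and the cow was the replicate. A probe was tested if 22 or more of the 44 samples had it well above background with a signal of 80 units or higher, which kept 14690 of 21475. The number of arrays limits the precision.

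Comparisons used limma 3.58.1 in R 4.3.3 over all 14690 probes, called at a Benjamini-Hochberg adjusted p under 0.05, and exact two-sided permutation tests per member, with 100000 permutations for correlations. The tissue difference was taken within the cow whose number the sample titles give, and its limma fit held both states with 1 shared spread. A list took 1 probe a gene, that with the highest mean signal. Text names went to all probes of the members, to the 5 genes most like each, and to at most 5 genes of a list by smallest p. The members and lists were chosen with earlier results of these data known. The alternatives covered background correction, centring, the filter, repeat arrays, slide, the cow block, the methods' t-test, label covariates and leaving out cows. Scripts were tested on simulated data.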

Additional observations from a re-analysis of the deposited data

Results flagged for a closer look

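Of 45 groups of 4 to 10 cows examined, 6 held a cow far from the others, and chance marks about 1 in 20 such groups. The groups overlap, so 1 cow can count more than once. Cow K, whose tissues shared a slide of the third scan day, had the lowest caruncular minus intercaruncular difference of RSAD2, -0.50, both among large-embryo cows (the next was 1.74) and among sub-fertile cows (the next was 1.22). Its MX2 difference of -0.18 was the lowest of the sub-fertile cows (the next was 1.48). Cow T, the cyclic cow with both tissues on 1 slide, had the lowest intercaruncular MX1 of the cyclic cows, -2.90 (the next was -2.0), and the lowest MX2, -3.87 (the next was -3.54). Cow J had the lowest caruncular MX1 of the fertile cows, 0.55 (the next was 1.26). The effects of embryo size and fertility label on the tissue difference were compared in 6 tests, and 0 passed.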

How the results depend on the processing

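Of 438 alternative values for the members, 419 kept their direction and, where tested, their side of the threshold. That count includes settings that could not move a value, such as no centring of arrays whose median was already 0, and the removal of cow K under both its scan day and its number. Without the cow as a block, that is without the pairing of tissues, the MX1 tissue difference was 0.41 in pregnant cows (adjusted p = 0.0623, limma) and -0.37 in cyclic cows (adjusted p = 0.147), neither of them called, while RSAD2 and MX2 in pregnant cows remained called. In the only cow of each state with both tissues on 1 slide the difference was -0.50 for RSAD2, -0.12 for MX1 and -0.18 for MX2 (pregnant), and -0.605 for RSAD2 and 0.14 for MX2 (cyclic). With slide as a fixed block the fertility difference was -0.048 for caruncular MX2 and -0.30 for intercaruncular RSAD2, which was -0.16 with slide as a random block, and the caruncular pregnancy difference of RSAD2 was 4.62. Without cow K intercaruncular MX2 was 0.066. Leaving out 1 cow each time, the fertility difference ranged from -0.25 to 0.52 for intercaruncular RSAD2 and from -0.64 to 0.066 for MX2. The cause was not tested.

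Probes called moved by over 1.5 times in some comparisons. Intercaruncular embryo size gave 542, but 319 with no filter, 1086 and 876 with slide as a fixed or random block, 1882 without cow K and 34 (cow B) to 343 (cow A) without each of cows A to G, I and J. Intercaruncular fertility gave 7, but 4 with no filter, 3 with the stricter filter, 0 and 3 with slide as a block (limma), and 3 to 43 with 1 cow left out, 43 being without cow K. Caruncular fertility gave 0, and up to 2 with 1 cow left out. The cyclic tissue difference gave 8137, and 5293 without the cow block. Pregnancy gave 1467 and 1064, and with slide as a fixed block 58 and 128, or 653 in intercaruncular samples as a random block.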

Other observations

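RNA of the embryo itself was looked for in the same samples. The probes for interferon tau, for the trophoblast proteins TKDP1 and PRP1 and for most pregnancy-associated glycoproteins were above background in 0 or 1 of the 24 samples of pregnant cows. The exceptions were a PAG1 probe designed on the sequence AW656401, which was above background in 24 of 24 pregnant and 20 of 20 cyclic samples, and TFAP2C, in 22 of 24 and 18 of 20.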
